A study of Mus musculus with 4 samples.

Results

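The 10 genes described here are the AP-1 genes Fos, Fosb, Fosl1, Fosl2, Jun, Junb, Jund and Atf3 and the early growth response genes Egr1 and Egr3, taken by name from 21887 protein-coding mouse genes. For each, the peaks of 2 lists were read that lay within 1 kb or 5 kb of either gene end, or inside the gene. The lists come from ChIP-seq, which sequences the DNA that an antibody pulls down with its protein, here HA-tagged Fbxl10 (also called Kdm2b). The cells were mouse embryonic fibroblasts (MEFs), and the label of all 4 libraries gives the same genotype, overexpression of HA-tagged Fbxl10. In the induced group, the tagged protein was switched on with doxycycline at 1 µg/ml for 48 hours, and the non-induced group carried the same transgene without doxycycline. Each of these groups had an HA ChIP library and an input library, and 1 peak list per ChIP group was analysed. No source used here names the promoter that drives the transgene, and peak lists hold no expression values with which the fibroblast label could be checked. The protocol speaks of 3 independent samples, and their relation to the lists is not given. Neither condition had a second list as a replicate, so no test was run and each difference is one between lists.

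AP-1 is a family of transcription factors that bind DNA in pairs through a basic region and a leucine zipper (bZIP). Jun proteins can pair with each other or with Fos proteins, while Fos proteins need a partner such as Jun. Most of these genes, like the zinc finger genes Egr1 and Egr3, are immediate early genes: growth factors or stress switch them on through MAP kinases, SRF and CREB before any new protein is made. Fbxl10 carries a CXXC zinc finger that binds unmethylated CG pairs, as found in CG-rich promoters.

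Induced peaks lay at most of the 10 genes. Non-induced peaks lay at none of them, and most coding genes had none either. Within 1 kb of a gene end, 7 of 10 had an induced peak (70.0%, exact 95% Clopper-Pearson interval 34.8 to 93.3, counting error only): Jun, Junb, Jund, Fosb, Fosl2, Atf3 and Egr3. Of all 21887 coding genes, 13.4% had one. The 10 genes were no random draw and were chosen with earlier results of these data known. The interval is therefore no test of the members against other genes. Within 5 kb Fos joined them, giving 8 of 10 beside 18.4% of all genes. The same 7 genes as at 1 kb had an induced peak overlapping the gene itself, beside 16.5%. Fosl1 and Egr1 had no induced peak within 20 kb of an end. In the non-induced list 0 of 10 had a peak within 1 kb, where 1.59% of all genes did. Within 5 kb or inside the gene the count was also 0 of 10, beside 12.7% of all genes. A count of 0 of 10 allows a share of up to 30.0% when the limit is set at 3 counts of the total (30.8% by the exact interval). Both shares of all genes lie below that limit, so the 0 does not set the members apart from other genes.

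The peaks took different places at the genes, and the bases before 5 of the start sites are shown, some under a peak and some not. Each line gives the 250 bases before the RefSeq start site, 5′ to 3′ on the gene's strand (GRCm38.p6, the mm10 assembly), with CG pairs in capitals. The first 2, of Junb and Fosl2, lay wholly under an induced peak. In the next, of Jun, the last 120 bases did. Of Atf3, the member with the highest score, no base did, since its peak ended just inside the gene. Of Jund no base did either, and its peak began farther inside.
Junb (chr8:84978749-84978998, minus strand): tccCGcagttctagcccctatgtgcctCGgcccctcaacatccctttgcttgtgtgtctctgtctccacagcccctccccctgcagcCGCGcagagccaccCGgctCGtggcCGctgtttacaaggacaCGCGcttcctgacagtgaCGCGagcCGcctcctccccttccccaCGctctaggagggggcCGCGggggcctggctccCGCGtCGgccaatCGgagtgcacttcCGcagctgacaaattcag
Fosl2 (chr5:32136222-32136471, plus strand): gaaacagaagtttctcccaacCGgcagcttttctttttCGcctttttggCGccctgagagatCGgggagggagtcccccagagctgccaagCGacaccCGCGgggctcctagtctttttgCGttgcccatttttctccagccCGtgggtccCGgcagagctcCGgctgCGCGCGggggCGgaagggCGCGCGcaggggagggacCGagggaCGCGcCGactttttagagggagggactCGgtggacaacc
Jun (chr4:95052223-95052472, minus strand): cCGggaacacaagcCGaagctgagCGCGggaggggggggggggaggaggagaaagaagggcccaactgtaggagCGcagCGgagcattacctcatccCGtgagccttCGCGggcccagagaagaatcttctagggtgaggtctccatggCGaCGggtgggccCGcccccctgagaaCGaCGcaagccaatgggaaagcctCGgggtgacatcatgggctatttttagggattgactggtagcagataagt
Atf3 (chr1:191183334-191183583, minus strand): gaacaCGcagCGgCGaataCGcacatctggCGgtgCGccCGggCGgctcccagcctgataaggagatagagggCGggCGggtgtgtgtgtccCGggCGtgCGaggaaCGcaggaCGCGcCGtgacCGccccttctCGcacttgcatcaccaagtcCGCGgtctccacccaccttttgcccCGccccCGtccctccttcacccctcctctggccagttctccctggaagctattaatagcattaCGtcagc
Jund (chr8:70697489-70697738, plus strand): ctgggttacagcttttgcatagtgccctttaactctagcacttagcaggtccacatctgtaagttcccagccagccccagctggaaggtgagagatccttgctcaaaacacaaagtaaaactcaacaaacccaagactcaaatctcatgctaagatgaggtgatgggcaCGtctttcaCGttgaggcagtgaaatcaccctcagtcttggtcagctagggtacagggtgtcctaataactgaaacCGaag

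All 3 Jun genes had an induced peak. Jun (gene 16476, chromosome 4 from 95049036 to 95052222, minus strand) encodes c-Jun, the founding partner of AP-1. Its peak ran from 95051019 to 95052342, covered the start site and 37.8% of the gene, and had a score of 161, rank 300 of 5497. The score is the authors' own value for each peak and serves only to rank peaks within a list. The same peak reached 26 bases into Junos, a long noncoding RNA gene beside Jun.

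Junb (gene 16477, chromosome 8 from 84976909 to 84978748, minus strand) encodes a Jun protein that can restrain cell division. Its peak, from 84978145 to 84979344, was centred on the start site, with the midpoint 4 bp inside the gene. It covered 32.8% of this short gene and had a score of 109.6, rank 907. A further induced peak (score 78.8) lay 11.2 kb from the nearer end of Junb and overlapped Hook2, a gene of microtubule transport.

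Jund (gene 16478, chromosome 8 from 70697739 to 70700616, plus strand) encodes the Jun protein that resting cells also make. Its peak lay wholly inside the gene, from 70698449 to 70699478, beginning 710 bp after the start site. It covered 35.8% of the gene, and its score was 129.5, rank 572. RefSeq lists 2 transcripts of Jund and the table gives 1 start, so the distance to any other start was not measured. The other members with a known start also had 1 start each, so the same limit holds for them. The Jun genes were 1.84 to 3.19 kb long, and each had 32.8% to 37.8% of its length under the peak.

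The Fos genes differed among themselves. Fosb (gene 14282, chromosome 7 from 19302696 to 19310118, minus strand), which is also the source of the stable protein ΔFosB, had a peak wholly inside the gene from 19308232 to 19309395. It began 650 bp after the start site and 723 bp from the gene end, with a score of 128.6, rank 580. Fosl2 (gene 14284, chromosome 5 from 32136472 to 32157840, plus strand) encodes Fra-2. Its peak, from 32135498 to 32136501, lay almost wholly before the gene, with 30 of its 1004 bases inside (score 108, rank 951). Fosl2 was the member with another peak within 5 kb of the same end, 3125 bp before the gene (32132623 to 32133347, score 91.6, rank 1475).

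Fos (gene 14281, chromosome 12 from 85473890 to 85477274, plus strand) encodes c-Fos, the best known of the early response proteins. No peak of either list overlapped it. Its nearest induced peak, from 85471465 to 85472222, ended 1668 bp before the start site and had a score of 67.6, rank 2678, close to the median of all induced peaks (66.6). Fos was also the member with the nearest non-induced peak, which ended 13.3 kb before the start (score 73.8, rank 1853 of 10532). Fosl1 (gene 14283, chromosome 19 from 5447698 to 5455938) encodes Fra-1. Its nearest induced peak was 31.5 kb away (score 78.2) and lay in Mus81, a DNA repair nuclease gene, 66 bp from that gene's end. The nearest non-induced peak to Fosl1 was 932 kb away.

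Atf3 (gene 11910, chromosome 1 from 191170296 to 191183333, minus strand), a stress-induced bZIP gene that often acts as a repressor, had the highest score of the members, 189, rank 191 of 5497. Its peak ran from 191182320 to 191183331 and stopped 2 bp inside the start site, so all of it lay in the gene. The neighbouring bZIP gene Batf3 lies on the same chromosome. In the 84.9 kb from Batf3 to the start of Atf3 and 5 kb to either side, the Atf3 peak was the only induced peak, and there were 0 non-induced peaks.

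The Egr genes encode zinc finger factors that bind GC-rich sites. Egr3 (gene 13655, chromosome 14 from 70077317 to 70082613) had a peak wholly inside the gene, from 70078119 to 70079271, 802 bp from the end of lower coordinate, with a score of 130.4, rank 563. Egr1 (gene 13653, chromosome 18 from 34861207 to 34864956) had none. Its nearest induced peak was 22.5 kb away (score 94.3, rank 1353), with no other gene within 1 kb of it, and the nearest non-induced peak was 431 kb away. The start sites of Fosl1, Egr1 and Egr3 were not given by the promoter table used, so their peaks are placed by gene ends alone. The gene table gives no exons, so exon and intron positions are not stated for any member.

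**Figure D1:**
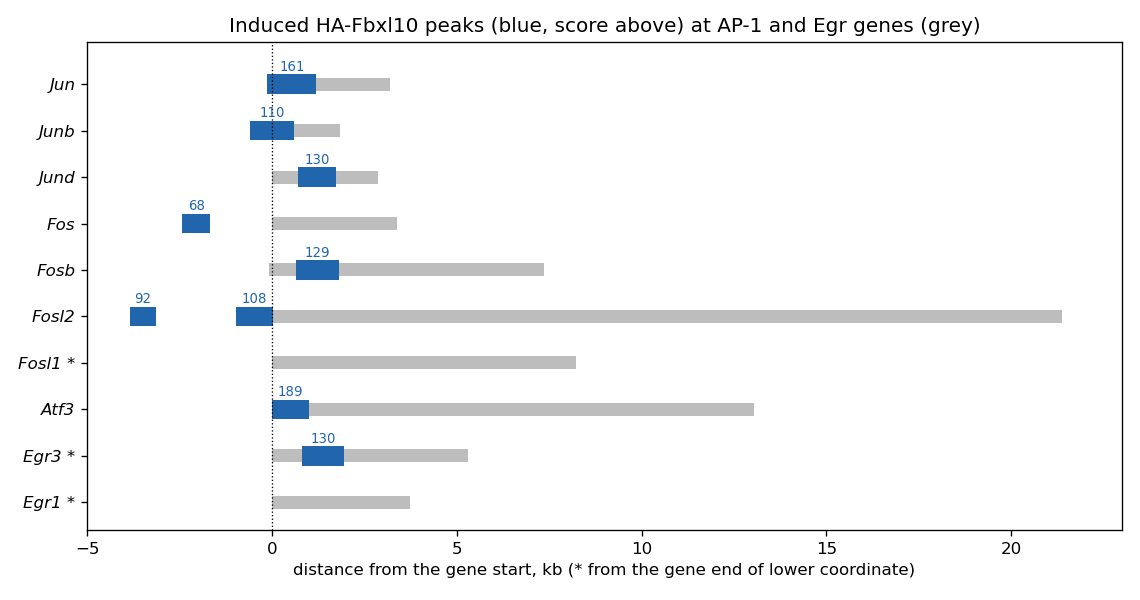
Position of induced peaks (blue, with the score above each) at the 10 genes (grey bars), in kb from the start site, or from the gene end of lower coordinate for the 3 genes marked with a star. The peaks of Jun and Junb cover the start, that of Fosl2 lies almost wholly before it, those of Jund, Fosb, Atf3 and Egr3 lie inside, and Fosl1 and Egr1 have none in the range shown.

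Of the 7 members with a known start site, 6 had an induced peak within 1 kb of it. The peak covered the start in 3 (Jun, Junb and Fosl2) and lay wholly on the gene side in 3 (Jund, Fosb and Atf3). Before the start, wholly, lay the peak of 0. Among all 2443 coding genes with an induced peak within 1 kb of a start, 58.9% had a peak that covered it, 23.2% one wholly on the gene side and 17.9% one wholly before it. The midpoints at the 6 members ranged from 473 bp before the start (Fosl2) to 1232 bp after it (Fosb), with a median of 525 bp after it. The median over all 2443 genes was 87.0 bp after it. A gene with several start entries was read at the start nearest a peak, while each of these members had 1 entry. The positions of members and of all genes are therefore not measured quite alike.

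The 7 peaks ranked high in the induced list and were wider than its median. Their scores ran from 108 (Fosl2) to 189 (Atf3), with a median of 129.5, and their ranks from 191 to 951, so that all 7 were in the top 17.3% of the list. The median score of all induced peaks was 66.6. Taking for each of the 2930 coding genes with an induced peak at 1 kb its highest one, the median was 80.2 and the upper quartile 111. All 7 members lay above that median, and 5 above the upper quartile, Junb and Fosl2 being the exceptions. A score limit of 100 was chosen after the values were seen and lies below all 7 scores, so it could not change the members' count. With it, 7 of 10 members had a peak within 1 kb, beside 4.25% of all genes. Without it the share of all genes was 13.4%, so the wider gap comes from the choice of limit. Egr3, Jund and Fosb had nearly the same score (130.4, 129.5 and 128.6). The widths ran from 1004 bp (Fosl2) to 1324 bp (Jun), each above the median of 758 bp over all induced peaks and of 874 bp over the peaks at genes. The upper quartile over the peaks at genes was 1095 bp. Fosl2, Atf3 (1012 bp) and Jund (1030 bp) lay below it, and the other members above it. Each of the 7 peaks belonged to a different gene, and no other coding gene had an end within 1 kb of any of them.

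**Figure D2:**
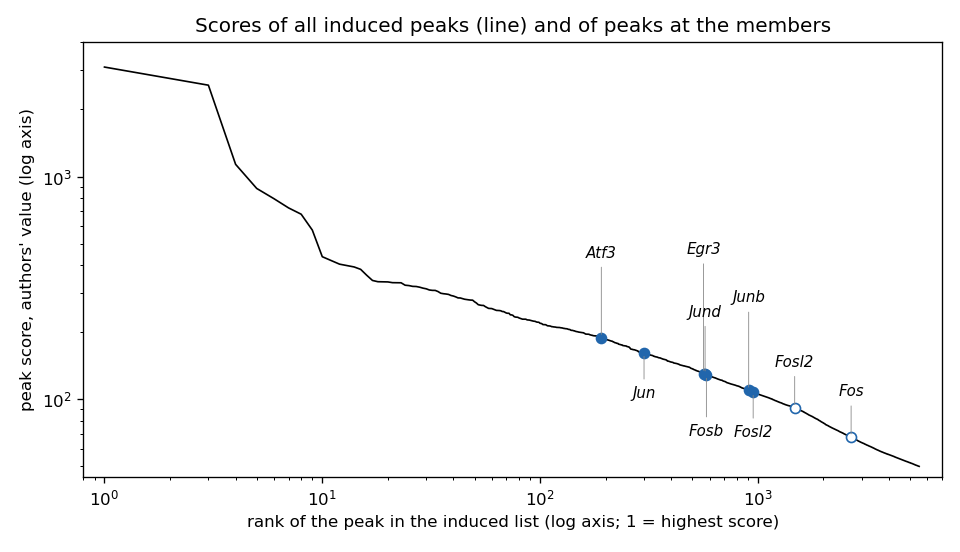
Score against rank for all 5497 induced peaks (line, both axes logarithmic) and for the peaks at the members (points, filled within 1 kb of a gene end and open between 1 and 5 kb). Filled points lie between rank 191 (Atf3) and rank 951 (Fosl2); the open points are the further Fosl2 peak and the Fos peak at rank 2678.

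The count depended on the distance allowed. An induced peak covered a gene end in 3 members (Jun, Junb and Fosl2), where 7.31% of all genes had such a peak. Atf3 made it 4 within 500 bp, beside 11.3%. The peaks of Jund, Fosb and Egr3 lay 710, 723 and 802 bp from an end, just inside the 1 kb limit, and that of Fos, at 1668 bp, was the next outside it. From 2 kb to 20 kb the count stayed at 8 of 10, while the share of all genes went from 15.3% to 27.7%. The median distance to the nearest induced peak was 0.717 kb for the members and 89.9 kb for all genes. For non-induced peaks it was 217 kb and 138 kb, with members from 13.3 kb (Fos) to 1184 kb (Fosb). The non-induced list is the longer of the lists, with 10532 peaks.

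**Figure D3:**
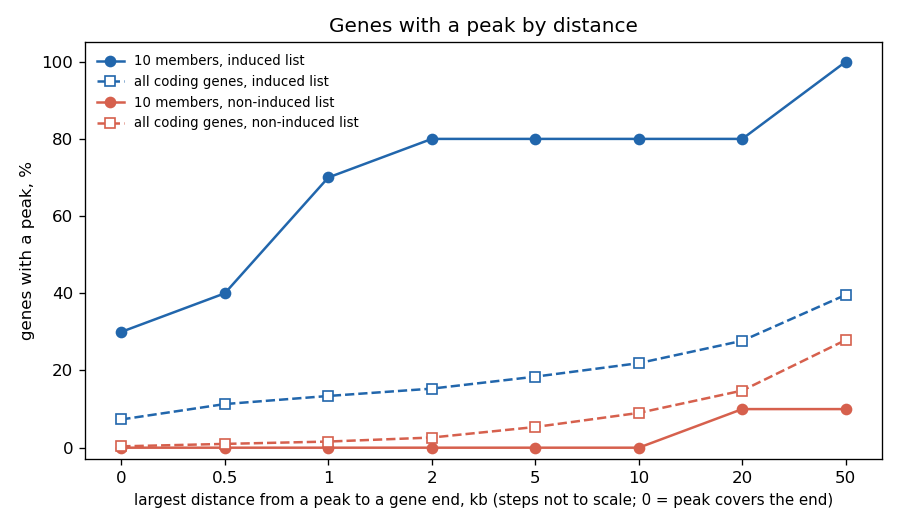
Share of genes with a peak (vertical axis, %) by the largest distance allowed from a gene end (horizontal axis, kb, steps not to scale), for the 10 members (filled) and all 21887 coding genes (open), in the induced (blue) and non-induced (red) list. The induced line of the members goes from 30.0% at 0 kb to 80.0% at 2 kb, and the non-induced line stays at 0% up to 10 kb.

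The CG pairs marked in the sequences above varied widely between the members. The 250 bases before the start held 24 CG pairs in Atf3, 23 in Fosl2, 20 in Junb, 19 in Fosb, 15 in Jun, 15 in Fos and 3 in Jund. Over 21263 promoters of 17492 coding genes the median was 10.0, with quartiles of 3 and 19.0. Over the 2896 promoters of genes with an induced peak within 1 kb of an end the median was 18.0, and over the others 8. So 6 of the 7 members lay above the overall median, and Jund had 3, a number below which 22.6% of promoters lay. Atf3, Fosl2, Junb and Fosb lay above the 18.0 of genes with an induced peak, and Jun, Fos and Jund below it. Fos had as many as Jun but no peak over its start. The GC content was 47.6% before Jund and 58.4% to 68.8% before the other members, beside a median of 55.6% over all promoters. Over the promoters of genes with an induced peak within 1 kb of an end, the median was 61.6%.

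Few short motifs were found in these windows on either strand. The letters GCGGGGGCG, bound by Egr proteins, were present before Fosl2, 71 to 79 bases before the start and under the induced peak. They were also present before Fosb, 42 to 50 bases before the start and outside its induced peak. Those at Fosb lie inside the annotated gene, which extends past the start site used. The same letters are in 3.41% of the promoters. The letters TATAAA were present before Fos, 28 to 33 bases before the start (11.6% of promoters). The AP-1 site TGACTCA (4.06% of promoters), the CRE TGACGTCA (1.92%) and the CArG box bound by SRF (1.39%) were in none of the 7 windows. None of these strings contains another. A match is a description of letters, and no match says only that these letters are not in this window.

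**Figure D4:**
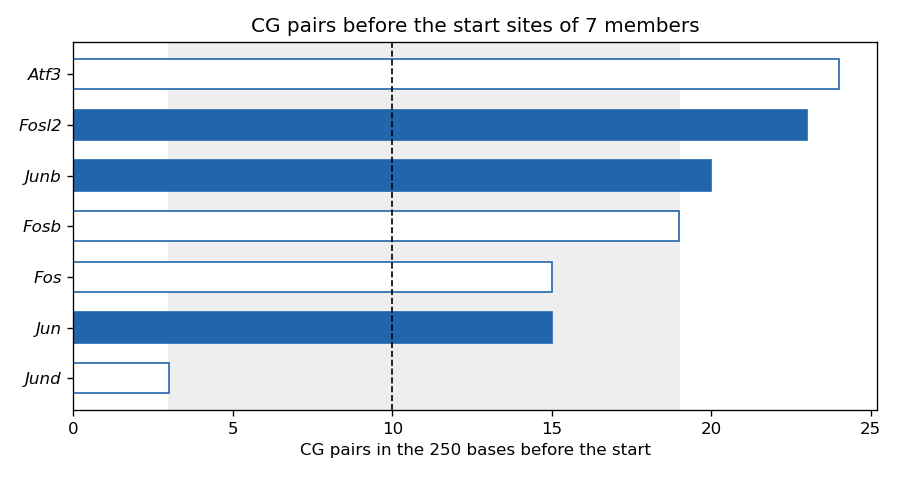
Number of CG pairs in the 250 bases before the start site of the 7 members with a known start. Filled bars mark windows that an induced peak overlaps, the dashed line is the median over all coding promoters (10.0) and the grey band spans the quartiles (3 to 19.0); Jund stands at 3 and the other members at 15 to 24.

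The genes around AP-1 and Egr were read from 6 lists. Feedback inhibitors, which switch MAP kinase signals off again, had an induced peak within 1 kb in 6 of 8: Dusp6, an ERK phosphatase (score 324, rank 25), Spry4 (159.7), Spry2 (147) and Dusp1 (107) were highest. The list of Egr partners held Nab1, Nab2 and the further Egr genes Egr2 and Egr4, and 2 of these 4 had one. They were Nab2, a corepressor that binds Egr proteins (291, rank 40), and its relative Nab1 (51.8). Egr2 and Egr4 had no induced peak within 1 kb. Of the other early response genes 8 of 21 had one, with the matrix protein gene Ccn1 (211), Klf10 (191), Myc (157) and Klf6 (101) highest. Their share, 38.1%, stands beside 70.0% for the members and 13.4% for all coding genes.

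An induced peak lay within 1 kb at 13.4% of all coding genes. Other bZIP genes, which encode possible partners or rivals of AP-1, had one in 2 of 11 (18.2%): Atf7 (148) and Mafa (62.5). Upstream regulators, the kinases and factors that switch the members on, had one in 3 of 14 (21.4%). These were Mapk14 (65.6), Elk4 (65.4) and Creb1 (62.9), all below the lowest score at a member. Of the AP-1 targets 3 of 10 (30.0%) had one: Ccnd1, which encodes cyclin D1 (249.7), Cd44 (63.6) and Vim (51.0). Non-induced peaks within 1 kb lay at Atf2 (66.7), Tnfaip3 (53.0) and Spry4 (50.1), beside 1.59% of all coding genes. That of Spry4, rank 10423 of 10532, lay within its induced peak. These lists are short and were not tested against each other.

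**Figure D5:**
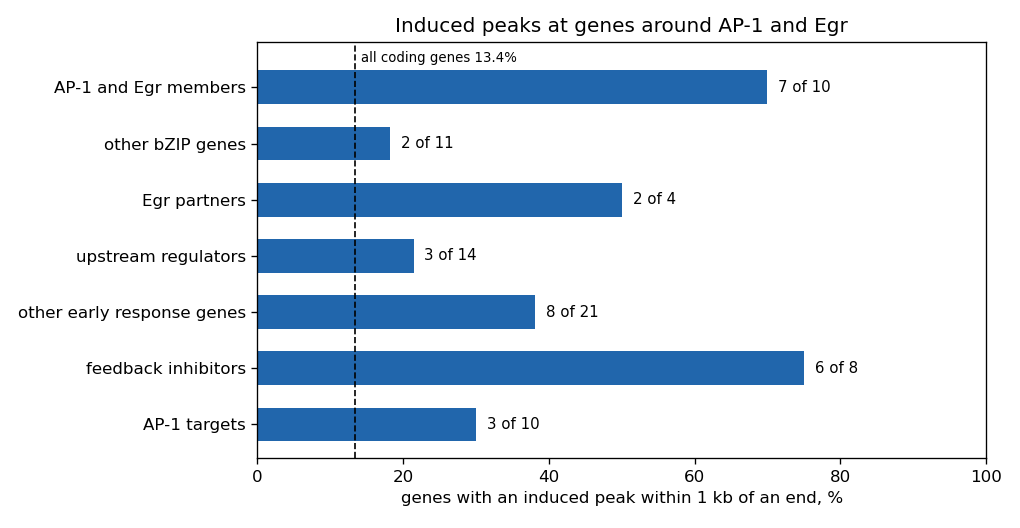
Share of genes with an induced peak within 1 kb of a gene end (horizontal axis, %), for the members and 6 lists of related genes, with the counts beside the bars. The dashed line marks all coding genes (13.4%); the members (7 of 10) and the feedback inhibitors (6 of 8) have the longest bars.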

How the data were processed

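Peak lists of HA ChIP-seq in MEFs were used, 1 from induced and 1 from non-induced cells; the input libraries were not used here. The submitters' processing notes name Bowtie2 and mm10, with no version. The peak names in the files show MACS as the caller; no source used here states its version, its threshold, how input was used or whether samples were pooled. The deposited column 5 holds a score for each peak, written by the authors' caller, with no formula given; scores rank peaks within a list. The files hold no read counts, so depth is unknown.

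Groups came from the library titles and the induction label, and lists were matched to libraries by the marks for with and without in their names. Positions were read as BED intervals and are given 1-based. Gene ends came from a RefSeq gene table of GRCm38.p6 (same coordinates as mm10), without strand. Start sites, strand and promoter bases came from a RefSeq promoter table of the same build, which matched 7 of 10 members. Distances run from a peak's nearest edge, and overlap means at least 1 bp. Of the promoter windows, the 250 bases before the start were read. The members, the lists and the rule for named genes (all members, up to 4 genes per list by induced score within 1 kb, every gene with a non-induced peak there) were chosen with earlier results of these data known. From the list of other bZIP genes 1 gene is not reported here and was left out of its counts.

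Software was pandas 2.3.3 and numpy 2.4.6 under Python 3.11.15, with matplotlib 3.10.9 for figures and SciPy 1.17.1 for intervals. The distance code was tested on simulated data, and its number of overlapped genes minus the number found by bedtools 2.31.1 was 0 for each list. Alternatives were other windows, score limits, lists of equal size, peak midpoints and the start site alone.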

Additional observations from a re-analysis of the deposited data

How the results depend on the processing

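The count of members with an induced peak within 1 kb of a gene end was 7. It fell to 4 with a window of 500 bp and to 4 with the distance taken from the peak midpoint, which takes Jund, Fosb and Egr3 out of range. With windows of 2 kb and 10 kb, which could only keep or raise it, the count was 8. With the start site alone it was 6, of the 7 members with a known start. It was 7 with scores from the median of the pooled lists (61.6) upward and with scores of at least 100 (added after the data were seen). Both limits lie below the lowest score of the 7 peaks (107.7), so neither could lower it. Lists of equal size (5497 peaks) also gave 7. Whether the lists share a score scale was not tested. The count within 5 kb was 8, fell to 4 with 500 bp and was 7 to 8 otherwise. The count of overlapped members was 7, and 6 with midpoints, without Fosl2. The count for the non-induced list was 0 in each alternative run. Of these runs only the window of 10 kb could have raised it, since the others are narrower than the main setting. Within 20 kb of an end, 1 member (Fos) had a non-induced peak. Equal list sizes leave the induced list as it is. No paired analysis was possible because each group has 1 list. The lists give no depth, so a gene without a peak is one at which no peak was called, and binding below the authors' threshold is not seen.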

Other observations

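Within 5 kb of an end, 12 of the 21 other early response genes had an induced peak (57.1%), beside 18.4% of all coding genes. Within 1 kb the count was 8. The peaks farther out ranged widely in score, and those named here were picked after their values were seen. Ier2, an immediate early gene, had an induced peak 1268 bp from an end with a score of 308, rank 33 of 5497, above the score of every member, and a further one at 1305 bp with a score of 57.9. Nr4a2, an orphan nuclear receptor gene, had one 3061 bp from an end (score 159, rank 313) and one inside the gene (81.7). Gadd45b had one 3531 bp away (105.5), and Klf4 one inside the gene, 2107 bp from an end, with a score of 50.5. Farther inside their genes than 5 kb lay peaks of Nr4a1 (86.4) and Sgk1 (85.1, 63.4 and 62.4). Of the other lists, Maff, a small Maf gene, and Egr2 had peaks inside the gene, 1464 and 1240 bp from an end (95.9 and 64.6, the latter below the median of 66.6 over all induced peaks). The upstream regulators Srf and Mrtfa also had peaks inside the gene, at Srf 3089 bp from an end (72.4) and at Mrtfa farther in (51.65).

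Fos shares its stretch of chromosome 12 with the bZIP genes Jdp2 and Batf. In the 235 kb from Fos to the end of Batf, and 5 kb to either side, there were 2 induced peaks and 0 non-induced ones. One is the peak before Fos, the other lies inside Batf (score 73.3, rank 2258), and Jdp2, between them, had none.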
